A study of Mus musculus with 22 samples.

Results

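The caveolae coat genes are Cav1, Cav2, Ptrf, Sdpr, Prkcdbp, Ehd2 and Pacsin2. These 7 genes were taken by symbol from each of 2 deposited expression tables, both of which list 24411 genes. Ptrf, Sdpr and Prkcdbp are the older symbols of cavins 1 to 3, now named Cavin1, Cavin2 and Cavin3. They were chosen by name with their log2 fold changes in both comparisons already known, so their values are given as a description and carry no test. The measurements are 22 RNA-seq libraries of primary neural stem cells from the adult mouse hippocampus, grown on coated plates with the growth factors EGF and bFGF. The study lowered or blocked O-GlcNAc transferase (OGT), the enzyme that places O-linked N-acetylglucosamine on proteins of the nucleus and the cytosol. In the knockdown arm, lentivirus encoding a short hairpin RNA was added at 10 viral particles per cell for 3 days, with a hairpin against Ogt in 5 libraries (ShOgt) and the control hairpin ShLuc in 6. In the inhibitor arm, cells received 12.5 µM of the OGT inhibitor OSMI-1 (5 libraries) or an equal volume of DMSO (Vehicle, 6 libraries) for 24 h. The labels name 1 hairpin against Ogt, no strain or genotype of the mice, and no separate animals or cultures behind the libraries of a group. The spread between libraries may therefore be technical.

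Caveolae are small flask-shaped pits of the plasma membrane, rich in cholesterol, that are best known from endothelial cells, fat cells and muscle. Caveolins are hairpin-shaped membrane proteins that build the core of the pit, and cavins form a coat around it from the cytosolic side. EHD2, an ATPase, sits at the neck of the pit and holds it at the cell surface, and PACSIN2, an F-BAR protein, senses and shapes its curved membrane. The pits flatten when the membrane is stretched and so act as a membrane reserve.

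Knockdown libraries held 7.22 to 13.2 M recovered reads and inhibitor libraries 4.52 to 12.8 M. The share of reads on Rn45s, the ribosomal precursor, was 0.921 to 1.25% and 4.81 to 14.2%. Ogt itself averaged 836 ± 89.8 normalized counts in ShLuc and 424 ± 63.9 in ShOgt, a log2 fold change of -0.98 ± 0.11 (SE), with no overlap between the groups. In the inhibitor arm, where the protein was targeted, Ogt mRNA went from 455 ± 37.6 to 599.9 ± 42.5 (0.40 ± 0.08, limma adjusted p = 0.001). Of 10 neural stem cell markers, Nes averaged 5591 in ShLuc and 2892 in Vehicle, and Vim, Fabp7 and Slc1a3 were of the same order or higher. Sox2 was at 65.6 and 61.8, and Msi1 was near 0 in all 4 groups and was not tested. ShLuc 1, ShLuc 3, ShOgt 3, Vehicle 1 and OSMI-1 replicate 5 stood apart on the second or the third principal component of their arm. Leaving these libraries out changed no call among the coat genes. OSMI-1 replicate 6 was kept there, although it lay at 20.8 on the third component, where replicate 5 lay at -33.7. Replicate 6 was left out in a fit of its own.

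Values below are the deposited normalized counts, that is reads divided by a size factor of the library. A group is given as its mean ± SD over libraries, with n = 6 in both control groups and n = 5 in both treated groups. Each log2 fold change sets treated against control and is given with its SE, from a limma fit of log2(normalized count + 1) across all tested genes. For a gene with few reads it can be smaller or larger than under the alternative tests. A gene is said to have passed when its adjusted p in the limma fit was under 0.05. Each table had its own normalization, so no level was compared between arms.

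The 250 bases before the start of transcription are shown for Ptrf, Sdpr and Ehd2, which passed in opposite directions in the 2 arms, and for Pacsin2, which differed from them in direction in the knockdown arm. They come from RefSeq on GRCm38.p6, where 6 of the 7 coat genes have an entry. Prkcdbp is not listed there. Capitals mark matches on either strand to GGAATG, the core of TEAD binding sites, to GGGCGG, the GC box bound by SP1-like factors, or to TATAAA, the TATA box. The CArG box of serum response factor was searched as well.
Ptrf (chr11:100970618-100970867, minus strand): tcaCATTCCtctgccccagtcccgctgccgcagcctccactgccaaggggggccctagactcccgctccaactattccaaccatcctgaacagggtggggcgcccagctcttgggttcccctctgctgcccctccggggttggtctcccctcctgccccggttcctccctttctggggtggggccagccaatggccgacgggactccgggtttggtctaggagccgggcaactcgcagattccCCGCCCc
Sdpr (chr1:51288876-51289125, plus strand): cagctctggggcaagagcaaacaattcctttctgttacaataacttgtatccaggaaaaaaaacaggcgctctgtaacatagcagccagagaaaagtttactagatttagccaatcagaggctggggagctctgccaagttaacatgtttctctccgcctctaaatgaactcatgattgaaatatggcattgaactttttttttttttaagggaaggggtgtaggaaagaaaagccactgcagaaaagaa
Ehd2 (chr7:15967536-15967785, minus strand): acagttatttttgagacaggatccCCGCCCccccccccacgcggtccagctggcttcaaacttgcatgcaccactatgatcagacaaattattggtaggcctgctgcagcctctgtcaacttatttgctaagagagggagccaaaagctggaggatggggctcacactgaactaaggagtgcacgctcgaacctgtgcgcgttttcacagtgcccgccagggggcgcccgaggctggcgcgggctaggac
Pacsin2 (chr15:83464607-83464856, minus strand): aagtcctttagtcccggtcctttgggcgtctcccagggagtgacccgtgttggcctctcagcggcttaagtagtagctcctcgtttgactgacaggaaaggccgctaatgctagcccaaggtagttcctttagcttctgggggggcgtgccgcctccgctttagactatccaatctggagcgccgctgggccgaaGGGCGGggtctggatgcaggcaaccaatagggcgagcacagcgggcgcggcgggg
The Ptrf stretch holds 1 TEAD match near its far end and 1 GC box just before the start. The Ehd2 and Pacsin2 stretches hold 1 GC box each, and the Sdpr stretch holds none of the motifs. Counted over the 300-base windows of RefSeq (250 bases before the start to 50 after it), the 6 genes have 10 windows, since some have several starts. A GC box was found in 6 of the 10, a TEAD match in 2 (both of Ptrf, and overlapping), a TATA match in 1 (Cav1) and a CArG box in none. Of 32851 such windows of all genes, 35.7% hold a GC box, 14.7% a TEAD match, 13.6% a TATA match and 1.63% a CArG box. G and C made up 66.7% of the Ptrf window and 43.3% of the Sdpr window, against a median of 52.7% over all windows. A match is a string of letters and not a mapped binding site. In GENCODE M21, Ptrf starts further upstream than in RefSeq, so the stretch shown lies inside the gene there.

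After Ogt knockdown, 6 of the 7 coat genes were higher and 1 was lower. All 7 passed and none had overlapping groups. In the same fit, 31.8% of 12136 tested genes passed, 15.4% as higher and 16.4% as lower, and 8.83% and 9.96% had groups that did not overlap in those directions. The members were chosen with this comparison known, so nothing is read from their count. Their median log2 fold change was 0.84, beside 0.01 over all tested genes. In RNA from whole cultures, fewer cells of a type and less RNA per cell cannot be told apart.

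**Figure D1:**
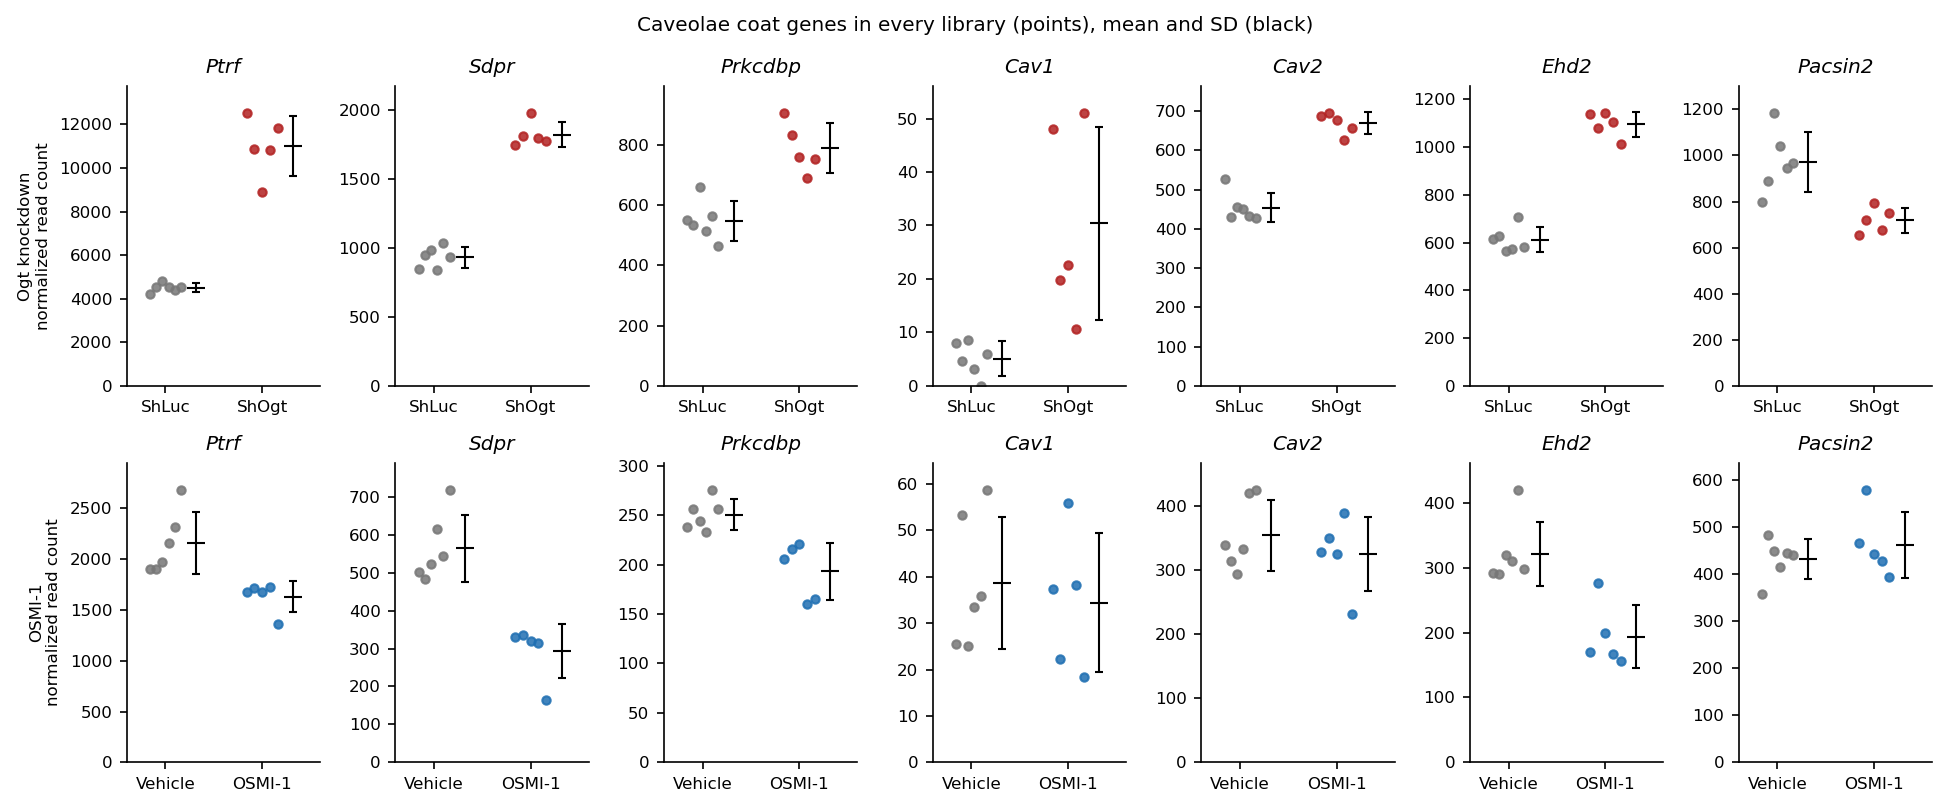
Normalized read count (y axis, starting at 0, a scale of its own for each gene) of the 7 coat genes in every library (points), with the group mean and SD in black. The upper row shows ShLuc (n = 6) and ShOgt (n = 5), where the points of the groups do not overlap for any gene, and the lower row shows Vehicle (n = 6) and OSMI-1 (n = 5), where Cav1, Cav2 and Pacsin2 overlap.

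Of the caveolins, Cav1, which is needed to form caveolae outside striated muscle, was barely detected in ShLuc cells. The gene (ENSMUSG00000007655) lies on GRCm38 at chr6:17306335-17341452, plus strand. In ShLuc, Cav1 had a lowest, median and highest normalized count of 0, 5.36 and 8.66, from 0 to 11 reads. Its 0 in ShLuc 5 allows up to 3 reads, or 2.85 normalized counts, for counting error alone. In ShOgt it stood at 48.0, 19.7, 22.6, 10.7 and 51.0 in replicates 1, 2, 3, 5 and 6, from 10 to 54 reads. Each ShOgt library was thus above each ShLuc library, but the lowest lay close to the highest control, and 2 of the 5 were far above the rest. The means were 5.09 ± 3.24 and 30.4 ± 18.0, and the log2 fold change was 2.46 ± 0.62. Cav1 passed the count filter only through its level in ShOgt. Over the alternative settings that tested it, its log2 fold change ran from 1.72 to 2.97.

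Cav2, which joins CAV1 in mixed oligomers, was well detected. Its gene (ENSMUSG00000000058) lies at chr6:17281185-17289115 on the same strand as Cav1 and ends 17.2 kb before Cav1 begins. Cav2 had a lowest, median and highest count of 428, 442 and 527 in ShLuc and stood at 688, 694, 678, 625 and 658 in ShOgt. All ShOgt libraries lay above the highest control, ShLuc 1, which itself stood apart from the other controls. The means were 454 ± 37.4 and 669 ± 28.0, a log2 fold change of 0.56 ± 0.09 and a ratio of 1.47. The neighbouring caveolin genes were thus both higher, at levels that differed widely.

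Among the cavins, Ptrf had the highest counts. Its product, cavin 1, is required for the coat and for caveolae. The gene (Cavin1, ENSMUSG00000004044) lies at chr11:100956733-100970887, minus strand. Ptrf had a lowest, median and highest count of 4230.4, 4520.5 and 4835 in ShLuc. In ShOgt it stood at 12514, 10881, 8896, 10845 and 11853. Even the lowest ShOgt library, replicate 3, was well above every control, and the ShLuc libraries lay close together. Ptrf averaged 4504 ± 199 and 10998 ± 1368, which is 2.44-fold higher and a log2 fold change of 1.28 ± 0.07. Of all tested genes, 2.88% had a larger log2 fold change.

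Sdpr encodes cavin 2, a phosphatidylserine-binding coat protein, and lies at chr1:51289126-51302960, plus strand (Cavin2, ENSMUSG00000045954). It had a lowest, median and highest count of 842, 941 and 1035 in ShLuc and stood at 1745, 1810.1, 1975, 1798 and 1776 in ShOgt. The ShOgt libraries lay close together except replicate 3, which was the highest. Sdpr averaged 931 ± 76.7 and 1821 ± 89.6, 1.96-fold higher, with a log2 fold change of 0.97 ± 0.08. ShOgt 3 was thus the lowest of its group for Ptrf and the highest for Sdpr.

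Prkcdbp encodes cavin 3, which also binds protein kinase C delta, and lies at chr7:105480083-105482300, minus strand (Cavin3, ENSMUSG00000037060). Its lowest, median and highest counts were 465, 540 and 661 in ShLuc, and it stood at 904, 833, 758, 688 and 752 in ShOgt. The groups came close, with ShLuc 3 just below ShOgt 5. Prkcdbp averaged 547 ± 65.4 and 787 ± 82.9, and its log2 fold change of 0.53 ± 0.10 was the smallest of the cavins.

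Ehd2, whose product forms rings at the caveola neck, lies at chr7:15946958-15967567, minus strand (ENSMUSG00000074364). It had a lowest, median and highest count of 565, 598 and 706 in ShLuc and stood at 1139, 1081, 1142, 1107 and 1013 in ShOgt. The groups were far apart and narrow. Ehd2 averaged 612 ± 52.1 and 1096 ± 52.8, 1.79-fold higher, with a log2 fold change of 0.84 ± 0.08.

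Pacsin2 was the coat gene that was lower after knockdown. Its product also works in endocytosis and actin remodelling away from caveolae, and the gene lies at chr15:83375607-83464606, minus strand (ENSMUSG00000016664). It had a lowest, median and highest count of 799.7, 956 and 1183 in ShLuc and stood at 653, 718, 792, 677 and 750.1 in ShOgt. ShOgt 3 was just under the lowest control, ShLuc 1. Pacsin2 averaged 971 ± 132 and 718 ± 55.8, a log2 fold change of -0.43 ± 0.10.

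After 24 h with OSMI-1, 4 of the 7 coat genes passed as lower, none passed as higher, and 3 did not pass. The 4 were Ptrf, Sdpr, Prkcdbp and Ehd2, that is all 3 cavins and the neck ATPase, and their groups did not overlap. Of 11349 genes tested in this arm, 24.8% passed, 11.6% as higher and 13.2% as lower, and 6.27% and 7.71% had groups that did not overlap in those directions. As in the knockdown arm, the members were chosen with these results known and nothing is read from the count. The median log2 fold change of the 7 genes was -0.38, beside 0.00 over all tested genes.

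Sdpr showed the largest difference of the coat genes. Its lowest, median and highest counts were 484, 533 and 718 in Vehicle, and it stood at 331, 336, 320.2, 315 and 165 in OSMI-1 replicates 1, 2, 4, 5 and 6. Of the 5 treated libraries, 4 lay close together below the lowest control and replicate 6 lay far below them. Sdpr averaged 564 ± 88.1 and 293 ± 72.2, a log2 fold change of -0.97 ± 0.15, and of -0.78 without OSMI-1 replicate 6.

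Ptrf had a lowest, median and highest count of 1904, 2063 and 2679.8 in Vehicle and stood at 1679.6, 1710.1, 1673, 1722 and 1363 in OSMI-1. Again replicate 6 was the lowest, and the other 4 treated libraries were nearly level. Ptrf averaged 2155 ± 303 and 1629 ± 150.3, a log2 fold change of -0.40 ± 0.09, and of -0.33 without OSMI-1 replicate 6. Prkcdbp had a lowest, median and highest count of 233, 249.7 and 276 in Vehicle and stood at 206, 216, 220.3, 159.9 and 165 in OSMI-1. Its treated libraries fell into a nearer and a farther set, all below the lowest control. Prkcdbp averaged 250.4 ± 15.4 and 193 ± 28.8, a log2 fold change of -0.38 ± 0.11.

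Ehd2 had a lowest, median and highest count of 290.2, 304 and 420.0 in Vehicle and stood at 169.5, 276, 199.7, 167 and 157 in OSMI-1. OSMI-1 replicate 2 was just under the lowest control, and Vehicle 5 was well above its group. Ehd2 averaged 321 ± 49.7 and 194 ± 48.5, a log2 fold change of -0.75 ± 0.13, and of -0.68 without OSMI-1 replicate 6.

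The caveolins and Pacsin2 had overlapping groups in this arm and did not pass. Cav1 had a lowest, median and highest count of 25.0, 34.6 and 58.8 in Vehicle and stood at 37.4, 22.3, 55.9, 38.2 and 18.3 in OSMI-1, from 16 to 130 reads. Its means were 38.7 ± 14.2 and 34.4 ± 14.9, a log2 fold change of -0.19 ± 0.29. With this SE, a difference of the size seen for Ptrf was not detectable for Cav1. Cav2 had a lowest, median and highest count of 294, 336 and 425 in Vehicle and stood at 329, 351, 326, 389 and 231 in OSMI-1, with means of 354 ± 55.7 and 325 ± 58.2 and a log2 fold change of -0.13 ± 0.12. Pacsin2 had a lowest, median and highest count of 357, 442 and 484 in Vehicle and stood at 466, 579, 443, 427 and 393 in OSMI-1, with means of 432 ± 42.3 and 462 ± 70.7 and a log2 fold change of 0.09 ± 0.10. OSMI-1 replicate 6 was the lowest treated library for 6 of the 7 coat genes, all but Prkcdbp, where it was next to lowest. That library's part in the results was measured by leaving it out, and the 4 genes passed without it. Prkcdbp then came near the threshold (limma adjusted p = 0.044).

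**Figure D2:**
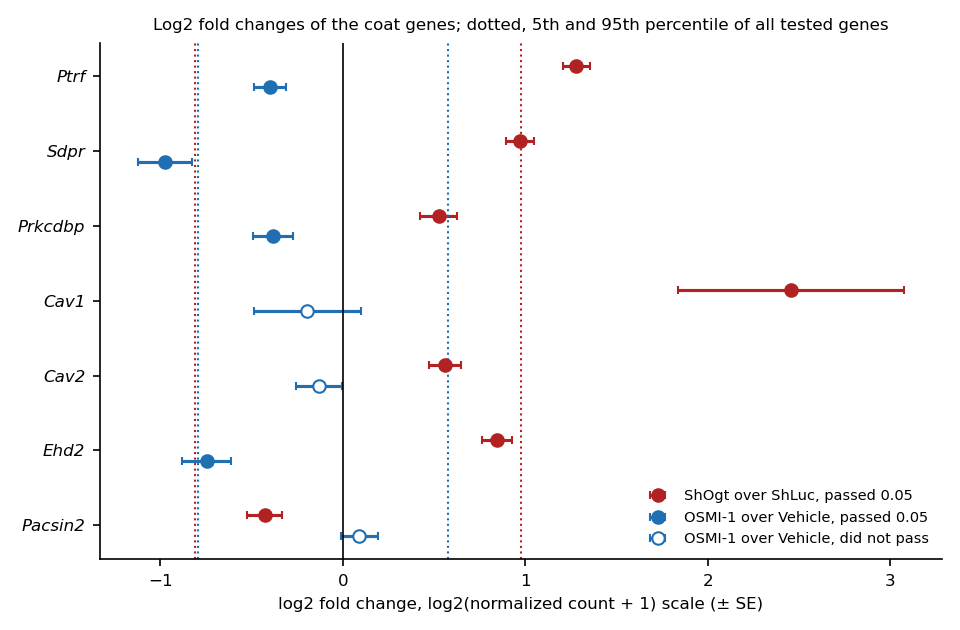
Log2 fold change of each coat gene on the log2(normalized count + 1) scale (x axis, points, with bars of 1 SE), ShOgt over ShLuc in red and OSMI-1 over Vehicle in blue, with filled points for genes that passed. Dotted lines mark the 5th and 95th percentile of all tested genes in each arm (-0.81 and 0.97 in red, -0.80 and 0.57 in blue), and Ptrf, Sdpr, Prkcdbp and Ehd2 lie right of 0 in red and left of 0 in blue.

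The arms thus gave opposite signs for most of the coat. Ptrf, Sdpr, Prkcdbp and Ehd2 passed as higher in ShOgt and as lower in OSMI-1. This was so for 150 of the 11269 genes tested in both arms (1.33%). The members were chosen with both comparisons known, so nothing is read from their count here either. Sdpr had log2 fold changes of 0.97 and -0.97, Ehd2 of 0.84 and -0.75, Ptrf of 1.28 and -0.40 and Prkcdbp of 0.53 and -0.38. The order of size thus differed between the arms, with Ptrf ahead of Sdpr in one and well behind it in the other. The arms differ in agent, in duration and in how the libraries were scaled, and the difference between them was not tested. In the authors' deposited table for the knockdown all 7 genes passed, with a log2 fold change of 2.57 ± 0.59 for Cav1 and 1.29 ± 0.08 for Ptrf. In the authors' deposited table for the inhibitor the same 4 genes passed, with 0.94 ± 0.15 for Sdpr, where the sign is that of Vehicle over OSMI-1.

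Levels of different genes were compared per kilobase of the principal GENCODE M21 transcript, within a group. Ptrf was by far the highest coat gene in each group, at 1290.3 ± 56.9 normalized reads per kb in ShLuc, 3150.4 ± 392 in ShOgt, 617 ± 86.9 in Vehicle and 467 ± 43.1 in OSMI-1. Cav1 was the lowest in each, at 2.02 ± 1.28, 12.1 ± 7.14, 15.3 ± 5.65 and 13.6 ± 5.92. Between them the order in ShLuc was Prkcdbp (329 ± 39.4), Sdpr (305 ± 25.1), Pacsin2 (263 ± 35.6), Cav2 (166 ± 13.7) and Ehd2 (119 ± 10.2) per kb. Prkcdbp, Sdpr and Pacsin2 overlapped with their neighbours in that order, whereas Cav2 and Ehd2 did not.

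In ShOgt the order on the per-kb scale was Sdpr (596 ± 29.3), Prkcdbp (473 ± 49.9), Cav2 (245 ± 10.2), Ehd2 (214 ± 10.3) and Pacsin2 (194 ± 15.1). Sdpr stood clear of Prkcdbp there, and Ehd2 and Pacsin2 overlapped. In Vehicle the order per kb was Sdpr (185 ± 28.8), Prkcdbp (151 ± 9.29), Cav2 (129.7 ± 20.4) and Pacsin2 (117 ± 11.5), each overlapping the next, and then Ehd2 (62.8 ± 9.7). In OSMI-1, Sdpr moved from the second place to the fifth. There the order was Pacsin2 (125 ± 19.1), Cav2 (119 ± 21.3), Prkcdbp (116 ± 17.3) and Sdpr (96.0 ± 23.6), again overlapping, and then Ehd2 (37.9 ± 9.48).

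**Figure D3:**
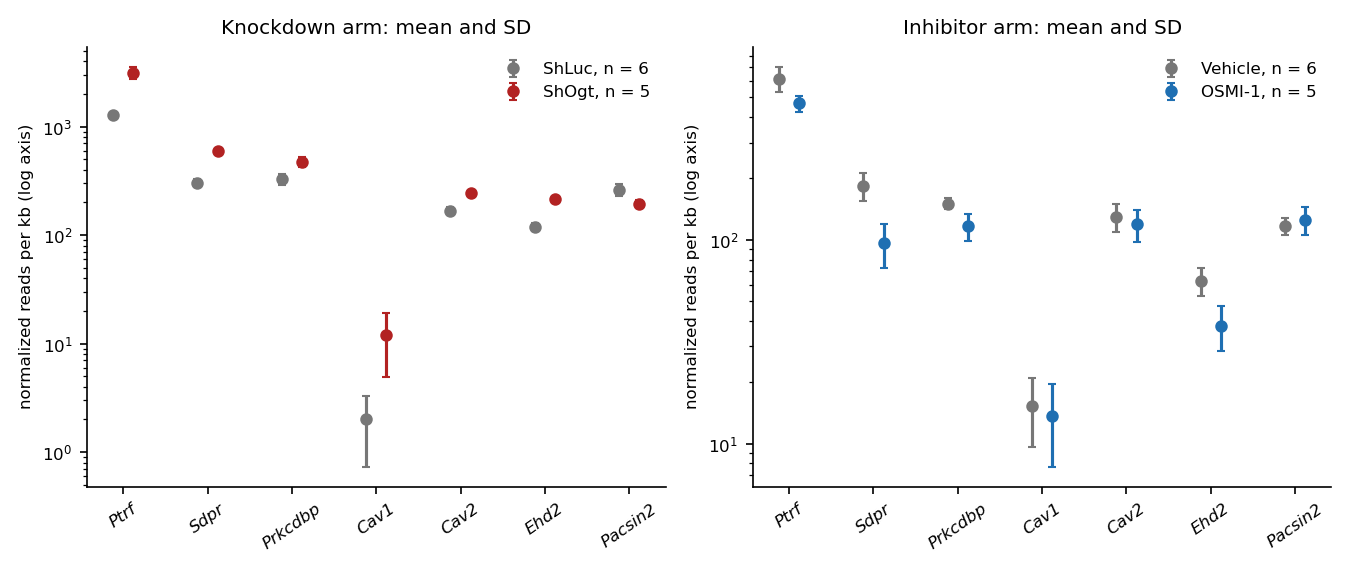
Mean normalized reads per kilobase (y axis, logarithmic) of each coat gene with bars of 1 SD, ShLuc and ShOgt on the left, Vehicle and OSMI-1 on the right, each panel with its own axis since the arms were scaled separately. Ptrf is the highest and Cav1 the lowest gene in all 4 groups, and Pacsin2 is the 1 gene whose ShOgt mean lies under its ShLuc mean.

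The makeup of the coat transcripts differed between groups as well. The summed level of the 3 cavins per kb, divided by that of the 2 caveolins, was 11.5 ± 1.15 in ShLuc and 16.5 ± 1.38 in ShOgt, and 6.62 ± 0.573 in Vehicle and 5.20 ± 0.546 in OSMI-1. In the knockdown arm its ranges were 9.28 to 12.4 and 14.2 to 17.6 and did not overlap, and in the inhibitor arm they were 5.98 to 7.51 and 4.40 to 5.91 and did not overlap either. Ptrf supplied 67.1 ± 1.6% of the cavin level in ShLuc and 74.5 ± 2.8% in ShOgt, and 64.7 ± 1.12% in Vehicle and 68.9 ± 2.41% in OSMI-1. Its share was thus larger in the treated groups of both arms, although Ptrf itself was higher in one and lower in the other. Cav1 supplied 1.18 ± 0.719% of the caveolin level in ShLuc and 4.61 ± 2.62% in ShOgt, and 10.5 ± 3.14% in Vehicle and 10.1 ± 3.55% in OSMI-1. These ratios rest on the same values as the choice of genes and carry no test.

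How alike the genes were across libraries was measured as the root mean square, over the 22 libraries, of the difference between 2 genes in their log2 deviation from the control mean of their own table. It is 0 for identical patterns. Among the 21 pairs of coat genes the most alike were Prkcdbp and Cav2 (0.22), Sdpr and Ehd2 (0.26) and Prkcdbp and Ehd2 (0.29). Ptrf was nearest to Ehd2 (0.34) and Sdpr (0.36). Pacsin2 was 0.53 to 0.87 from the other genes except Cav1, and Cav1 was the farthest from all, at 0.93 from Ptrf and up to 1.59 from Pacsin2. The points share libraries and scaling factors, and the few reads of Cav1 add counting noise to its distances. The shift between treated and control libraries is part of each distance. The distances thus in part restate the log2 fold changes known when the genes were chosen, and are not separate results.

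**Figure D4:**
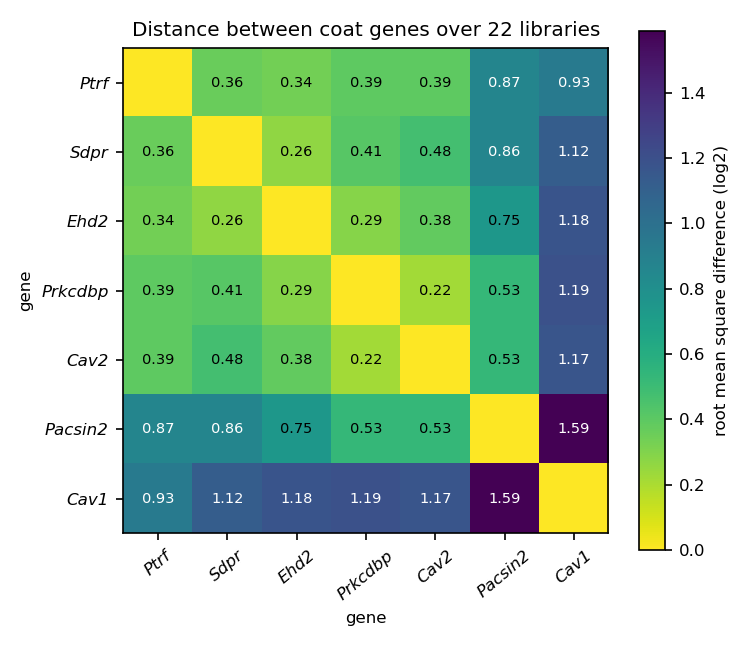
Root mean square difference in log2 deviation (colour and printed value, log2 units) between each pair of coat genes over 22 libraries. Ptrf, Sdpr, Ehd2, Prkcdbp and Cav2 are 0.22 to 0.48 from each other, and Pacsin2 and Cav1 lie farther away.

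By the same measure, the nearest of 8729 well expressed genes to Ptrf were Clu (0.18), 9430020K01Rik (0.19) and Il10rb (0.20), against a median of 0.71. Clu, which encodes the secreted chaperone clusterin, went from 584 ± 53.0 to 1331 ± 192 with the Ogt hairpin and from 311 ± 52.2 to 269 ± 57.5 with OSMI-1, where it did not pass. Il10rb, a receptor subunit of the interleukin 10 family, went from 185 ± 15.1 to 549 ± 66.3 and from 167 ± 28.9 to 123 ± 29.2, and passed in both, though its pass in the inhibitor arm was lost under 9 of 20 alternatives. 9430020K01Rik went from 979 ± 65.0 to 2227 ± 211 and from 606 ± 44.3 to 541 ± 103. The nearest to Cav1 were Mtmr11 (0.81), the annexin gene Anxa3 (0.81) and the kinase gene Sgk1 (0.82), against a median of 1.44. All 3 passed as higher in ShOgt, with log2 fold changes of 1.67, 1.62 and 1.50, and none passed in OSMI-1. The genes near Ptrf and Cav1 were picked on these same values, so their changes follow from the choice and are not separate results.

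The relatives of the coat genes were measured as a list of 7, of which 5 were tested. In the knockdown arm 3 of the 5 rose and none fell, with a median log2 fold change of 0.38, where 15.4% of all tested genes rose and 16.4% fell. In the inhibitor arm none passed (median -0.23), where 24.8% of all tested genes did. Ehd4, a paralog of Ehd2 that works on endosomes, rose from 1348 ± 98.0 to 2782 ± 232 (1.04 ± 0.07, limma adjusted p = 5.3e-09) and was at 975 ± 106 and 966 ± 141 in the inhibitor arm. Pacsin3 rose from 229 ± 13.7 to 299 ± 41.7 (limma adjusted p = 0.019), opposite in sign to Pacsin2, but did not pass without ShOgt 5 (limma adjusted p = 0.068). Ehd3 went from 315 ± 73.9 to 400.1 ± 27.5 (limma adjusted p = 0.0499), a pass that 14 of 20 alternatives did not keep. Ehd1 (487 ± 64.5 and 569.5 ± 108) and the neuronal Pacsin1 (97.1 ± 26.8 and 111 ± 28.8) did not pass. Cav3, the muscle caveolin, and Murc, the muscle cavin 4, averaged at most 1.34 and 3.78 normalized counts in any group and were not tested.

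Of 5 proteins that bind or act on caveolae, 1 rose and 1 fell in each arm. Over all tested genes 15.4% rose and 16.4% fell in ShOgt, and 11.6% and 13.2% in OSMI-1. The counts lie near these shares and are not a result about the list. The genes that passed were Flna and Dnm2, with opposite signs in the arms. The gene of the actin crosslinker filamin A, Flna, which tethers caveolae to actin, rose from 2695 ± 155 to 3588 ± 297 in ShOgt (0.41 ± 0.07, limma adjusted p = 0.00013). It fell from 1384 ± 170.3 to 940.2 ± 71.3 in OSMI-1 (-0.55 ± 0.08, limma adjusted p = 3.8e-05). Dnm2, the dynamin that cuts membrane necks, fell from 3669 ± 334 to 2837 ± 147 in ShOgt (-0.37 ± 0.07, limma adjusted p = 0.00045). It went from 1441 ± 107 to 1680.2 ± 202 in OSMI-1 (limma adjusted p = 0.049), a pass lost under 9 of 20 alternatives. Ror1 (46.5 and 40.4 in ShLuc and ShOgt, 18.9 and 15.0 in Vehicle and OSMI-1), Abl1 (400.1 and 434, 187 and 182) and Src (206 and 232, 119 and 112) did not pass in either arm.

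Both flotillins, which mark membrane domains distinct from caveolae, rose after knockdown. Over all tested genes 15.4% rose in ShOgt, and 24.8% passed in OSMI-1. Flot1 rose from 1849.9 ± 179 to 2617 ± 253 (0.50 ± 0.08) and Flot2 from 215 ± 68.3 to 444 ± 48.2 (1.12 ± 0.21), with limma adjusted p of 0.0001 and 0.0004. In the inhibitor arm Flot1 was at 664 ± 54.2 and 746 ± 91.6 and Flot2 at 105 ± 14.2 and 97.4 ± 11.7, and neither passed.

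Genes of other uptake routes showed mixed signs. Of 29 clathrin-mediated endocytosis genes 28 were tested, and 6 rose and 4 fell in ShOgt (median 0.00), while 5 rose and 2 fell in OSMI-1 (median 0.05). These counts lie near the shares of all tested genes that passed, 31.8% in ShOgt and 24.8% in OSMI-1, and are not a result about the list. Those with the smallest p in ShOgt were the clathrin assembly gene Snap91 (24.3 ± 8.39 to 109 ± 27.9) and the adaptor-associated Necap2 (2475 ± 140.3 to 3094 ± 159), which rose, and the endocytic adaptor Hip1 (7231 ± 388 to 5928 ± 348) and the scaffold Itsn1 (372 ± 34.7 to 279.98 ± 15.8), which fell. In OSMI-1 they were the adaptor kinases Aak1 (329.5 ± 22.9 to 434 ± 73.1) and Gak (408 ± 39.8 to 509.8 ± 49.6), which rose, and Fcho1, a nucleator of coated pits (55.8 ± 7.45 to 22.3 ± 10.9), and Ap2a1 (227 ± 38.7 to 174 ± 28.9), which fell. The pass of Ap2a1 was lost under 10 of 20 alternatives. Of 8 genes of other clathrin-independent carriers 7 were tested. In ShOgt 3 rose and none fell (median 0.11), where 15.4% of all tested genes rose and 16.4% fell. Among the 3 were Arhgap26 (109 ± 14.7 to 270.2 ± 40.6) and Baiap2 (1111 ± 101 to 1396 ± 133). In OSMI-1 none rose and 1 fell (median -0.07), the endophilin gene Sh3gl2 (117 ± 18.5 to 66.4 ± 13.6). Of all tested genes 11.6% rose and 13.2% fell there, so that count is not a result about the list.

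YAP and TAZ, transcription coactivators that respond to cell stretch and act through TEAD factors, were followed through a list of 22 target genes, of which 19 were tested. In ShOgt 8 rose and 2 fell, with a median of 0.29, and in OSMI-1 2 rose and 3 fell, with a median of -0.05. Over all tested genes 15.4% rose and 16.4% fell in ShOgt and 11.6% and 13.2% in OSMI-1, so the counts in OSMI-1 are near the background. Those with the smallest p in ShOgt were the matricellular gene Cyr61 (505 ± 43.3 to 1321 ± 115, 1.39 ± 0.09) and the kinase gene Lats2 (283 ± 39.7 to 669.6 ± 59.9, 1.25 ± 0.11), with limma adjusted p of 1.3e-09 and 1.1e-07. Ptpn14 (572 ± 56.0 to 449 ± 33.1) and Crim1 (393 ± 112 to 264 ± 19.0) fell, the pass of Crim1 being lost under 9 of 20 alternatives. In OSMI-1, Tgfb2 (367 ± 40.3 to 468 ± 24.0) and Crim1 (219 ± 29.0 to 297 ± 51.6) rose. Ctgf, a matricellular relative of Cyr61, fell from 684 ± 86.8 to 374 ± 106 (-0.92 ± 0.16, limma adjusted p = 0.00013), and Amotl2 fell from 141 ± 35.9 to 92.3 ± 12.9.

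**Figure D5:**
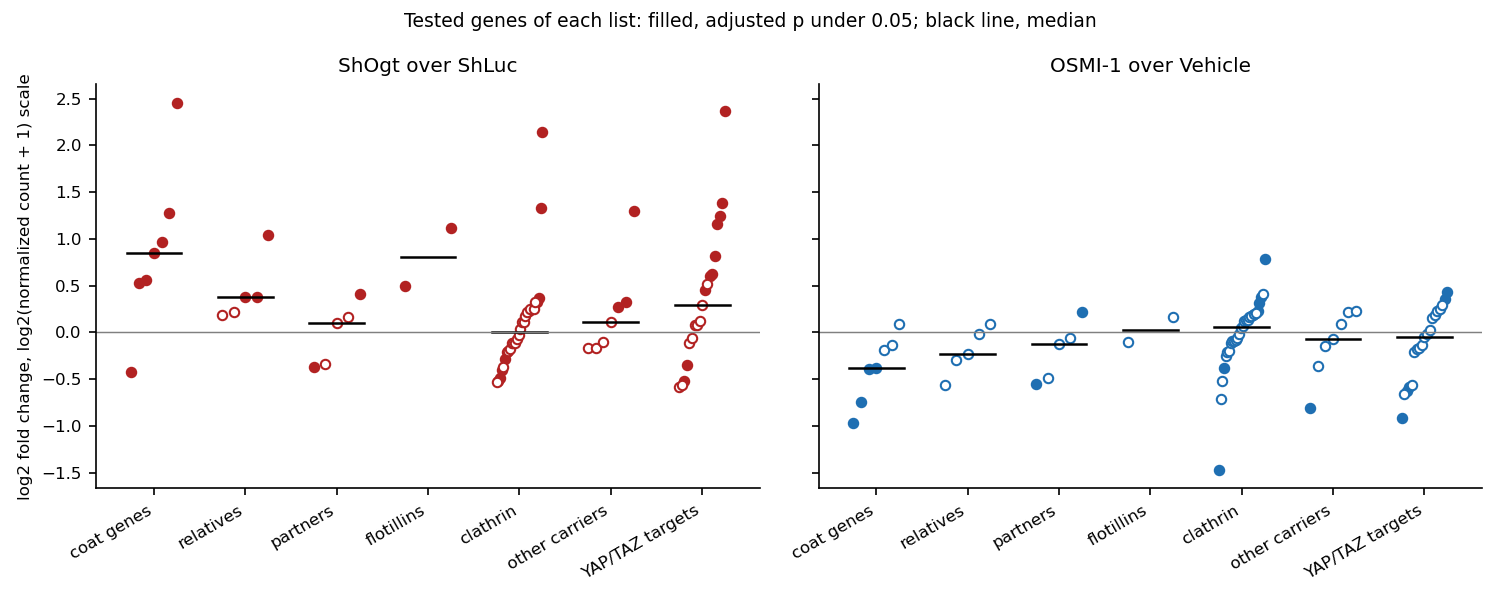
Log2 fold change (y axis, log2(normalized count + 1) scale) of every tested gene of the coat and of 6 pathway lists, ShOgt over ShLuc on the left and OSMI-1 over Vehicle on the right, with filled points for genes that passed and a black line at the median of each list. The coat genes have a median of 0.84 on the left and -0.38 on the right, and the clathrin list has 0.00 and 0.05.

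Caveolae are abundant in vessel cells, so 16 endothelial, mural and fibroblast markers were read beside the coat genes. Their summed normalized count ran from 24.7 to 54.3 in ShLuc, 41.6 to 82.9 in ShOgt, 15.3 to 32.7 in Vehicle and 11.5 to 41.6 in OSMI-1. Cdh5, a defining endothelial gene, was at 0 in every ShLuc, Vehicle and OSMI-1 library and averaged 0.592 in ShOgt, and Pecam1 averaged 2.67, 0.427, 0.557 and 0.458 in the 4 groups in that order. The endothelial receptor Tek was the 1 marker tested in the knockdown arm and went from 9.71 ± 8.19 to 29.8 ± 15.9 (limma adjusted p = 0.039), a pass lost under 10 alternatives (limma, edgeR or DESeq2 adjusted p from 0.051 to 0.104). The summed level of these markers lay above Cav1 in ShLuc, where Cav1 ran from 0 to 8.66. In ShOgt, Vehicle and OSMI-1 the range of the sum overlapped that of Cav1 (10.7 to 51.0, 25.0 to 58.8 and 18.3 to 55.9). The part of these markers in the values of the coat genes was not tested. The sum of 9 microglia and immune markers ran from 7.46 to 29.9 in ShLuc, 22.6 to 42.7 in ShOgt, 7.65 to 25.1 in Vehicle and 11.9 to 24.1 in OSMI-1, with Cx3cr1 and C1qa at 0 throughout the knockdown arm and Aif1 at 0 throughout the inhibitor arm.

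Markers of the neural lineages moved in both directions, to be read against the 15.4% of all tested genes that rose and the 16.4% that fell in ShOgt, and the 11.6% and 13.2% in OSMI-1. Of 9 tested neural stem cell markers 1 rose (Vim, 7745 ± 512 to 10928 ± 1284) and 3 fell in ShOgt, and of 8 tested in OSMI-1 none rose and 4 fell, Vim among them (6095 ± 660.4 to 4329 ± 594). Of the astrocyte markers, none of 6 rose and 1 fell in ShOgt, and 2 of 5 rose and 1 fell in OSMI-1. Of the oligodendrocyte lineage markers, 3 of 4 fell and none rose in ShOgt, and 1 of 5 rose and 1 fell in OSMI-1. Of the 2 tested neuronal markers 1 rose and 1 fell in each arm. The part of these markers in the values of the coat genes was not tested.

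No 3′UTR of the 7 coat genes holds the 7 bases AACATGC, a string searched because it was seen earlier, in these data, to be frequent in genes that were lower after knockdown. Among tested genes with an annotated 3′UTR, 28.2% of the 1194 that hold it passed as lower in ShOgt, against 15.4% of the 10526 that do not, which restates the observation that prompted the search. In OSMI-1 the shares were 10.97% of 1149 and 13.6% of 9897. Pacsin2, the coat gene that was lower, does not hold it.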

How the data were processed

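Poly(A) RNA-seq was deposited as 1 table per arm. The labels' extract protocol gives a strand-specific kit, but Smart-Seq2 appears in the design text. STAR, RSEM and DESeq2 were used per the submitters' processing notes, which name a human build although the symbols are mouse. Their versions are not given in the sources used here. Per the file headers, the authors deposited normalized counts per library (a signal, gene counts over a size factor), a log2 fold change with its SE, a Wald statistic (a score) and p-values with their adjusted values.

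Reads were recovered from the step between values in each library (100% of values whole within 0.001), and levels rest on 4.52 to 13.2 M reads per library. Genes were kept by filterByExpr (minimum count 10, minimum total 15). The test was limma 3.58.1 in R 4.3.3 on log2(normalized count + 1), with the prior variance following mean level, two-sided and within each arm, adjusted by Benjamini and Hochberg over all tested genes and called at 0.05. It called 3855 and 2815 genes, and 5031 and 4038 lay under 0.05 unadjusted. On the recovered reads, edgeR 4.0.16 called 1846 higher and 2002 lower genes after knockdown, and 1307 and 1497 after OSMI-1. DESeq2 1.42.0, other pseudocounts, filters and scalings, a replicate block and leaving out libraries were alternatives. The fit was tested on simulated data. Sequences and positions are from RefSeq (GRCm38.p6) and GENCODE M21 (GRCm38), matched through current symbols, not from the authors' build.

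The members, the lists and the rule for named genes were chosen with earlier results of these data known. Named are all 7 coat genes, Ogt, every gene of the lists of relatives, partners and flotillins, the 2 called genes of smallest p per direction in each other pathway list, and the 3 genes nearest to Ptrf and to Cav1 among genes with a mean of at least 50 in each table. Marker genes are named after their values were seen.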

Additional observations from a re-analysis of the deposited data

Results flagged for a closer look

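In groups of 5 or 6 libraries, a library was picked out when its gap to the nearest other one was a large part of the group's range. This was so in 7 of 36 groups checked, where chance alone gives about 1 in 20 for a single group. Of the 36 groups, 28 are coat genes read in the same libraries, so the groups are not independent. No excess over chance is read from the count.

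In the knockdown arm, Sdpr was at 1975 in ShOgt 3, with the other ShOgt libraries at 1745 to 1810.1. Cav2 was at 526.9 in ShLuc 1, with the other controls at 428.4 to 456. Ogt was at 1004 in ShLuc 2, with the other controls at 737.1 to 835.7.

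In the inhibitor arm, OSMI-1 replicate 6 was low for both Ptrf (1363, others 1673 to 1722) and Sdpr (164.9, others 315 to 335.5). Ehd2 was at 420.0 in Vehicle 5, with the other controls at 290.2 to 319.8. OSMI-1 replicate 4 held 12.78 M reads, with the other treated libraries at 4.594 to 5.909 M. None of these libraries changed a call among the coat genes when left out.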

How the results depend on the processing

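Each comparison was refitted under 20 alternatives: 2 other pseudocounts, TMM scaling, edgeR's quasi-likelihood test, DESeq2, no filter on counts, a mean of at least 50, a replicate block, leaving out each of 11 libraries, and leaving out the libraries that stood apart. All 278 refitted log2 fold changes of the coat genes kept their direction and their side of the threshold. Prkcdbp in OSMI-1 came closest to it, with a limma adjusted p of 0.046 without the libraries that stood apart. The genes were chosen with their values known, so this stability is no separate support. Cav1 was not tested in either arm under the mean of at least 50, which left 5 coat genes passing as higher after knockdown in place of 6. Leaving out 1 library gave 1509 to 1915 genes higher and 1700 to 2008 lower in ShOgt, and 1123 to 1264 higher and 1304 to 1422 lower in OSMI-1.

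Whether the replicate numbers pair the libraries cannot be settled from these values. Same-numbered libraries had correlations of -0.0086 to 0.16 for the knockdown and -0.099 to 0.051 for the inhibitor. In the knockdown arm 1 of 5 treated libraries was most alike to its own number, and in the inhibitor arm 0 of 5. The 1 was ShOgt 3 (0.16 with ShLuc 3), and ShOgt 3 and ShLuc 3 lay together on the third principal component (-34.0 and -33.6). With the replicate block, 1911 genes were higher and 2043 lower in ShOgt and 1076 and 1300 in OSMI-1. The coat genes then gave 6 higher and 1 lower in ShOgt, and 0 and 4 in OSMI-1.

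Among other named genes, signs turned in OSMI-1 for 6 of those refitted, none of which passed in either case, and the cause was not tested. Leaving out 1 library gave log2 fold changes of -0.0603 to 0.0789 for Ehd4, -0.14 to 0.0989 for Abl1, -0.22 to 0.0668 for Mtmr11, -0.17 to 0.15 for Sgk1, -0.0267 to 0.0839 for Lats2 and -0.49 to 0.071 for Myof. Abl1 came to 0.11 and Lats2 to -0.0268 without the libraries that stood apart, Mtmr11 to 0.0624 with the replicate block, and Myof to 0.0878 with DESeq2 and 0.13 with edgeR. Cyr61 and Crim1 in OSMI-1 and Pacsin3 in ShOgt each lost their pass under 1 alternative. Ehd1 in OSMI-1 passed under 2 and Pacsin1 under 1. Cav1 rests on at most 54 reads per library in the knockdown arm.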

Other observations

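Of the YAP and TAZ targets, Ctgf and Cyr61 were read in both arms after their values were seen, since both passed in each with all libraries. Ctgf rose from 1155 ± 134 to 1772 ± 125 in ShOgt (0.62 ± 0.08) and fell in OSMI-1. Cyr61 rose in ShOgt and fell from 284 ± 66.2 to 187 ± 55.7 in OSMI-1 (-0.63 ± 0.19, limma adjusted p = 0.018), but came to -0.41 without OSMI-1 replicate 6 and did not pass (limma adjusted p = 0.062). Flna of the caveola partners and Vim of the stem cell markers also passed as higher in ShOgt and as lower in OSMI-1. Both were likewise picked out here after their values were seen. Vim was the 1 of 9 tested stem cell markers that rose in ShOgt, where 3 fell. Of the 11269 genes tested in both arms, 150 (1.33%) passed in these directions, so nothing is read from these cases. Lats2, which had a log2 fold change of 1.25 in ShOgt, was at 222 ± 35.4 in Vehicle and 224 ± 17.6 in OSMI-1 and did not pass there. Within the same list Myof, a ferlin gene, rose from 10.1 ± 4.3 to 51.5 ± 9.88 in ShOgt and was at 30.3 ± 10.2 and 31.3 ± 23.6 in the inhibitor arm, where it did not pass.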
